A study of Bombus terrestris with 33 samples.

Results

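High and low Contig1004 queens are 12 of the 17 bumblebee queens (Bombus terrestris) whose brains were frozen before hibernation, out of 33 queens sequenced in all. The queens were grouped by a measured value and not by a label: the 17 were ranked by the share of their reads that fell on Contig1004, and the 6 highest (high queens) were set against the 6 lowest (low queens). The other 5 are called middle queens. Because the reads themselves chose the sets, every difference between high and low queens given here is a description, and its thresholds carry no weight as a test. Most tests of this text rest on the sample labels, or on the 16 queens sampled after hibernation, which took no part in the ranking. The exceptions are the interaction of set with mating outcome, fitted on the 12 ranked queens, and SM against FM queens with Contig1004 as a term, fitted on the 17.

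Young bumblebee queens, or gynes, leave the nest where they were reared, mate, spend the winter in diapause and found a colony alone in spring. In insects the brain takes part in these steps through neuropeptides, biogenic amines and the control of juvenile hormone, and brain transcripts can differ widely in level between individuals of the same stage. The contig identifiers of the count table matched 0 of the 13398 genes of the reference table, so what Contig1004 or any other contig encodes is not described here, no sequence is shown, and markers of brain or of neighbouring tissues could not be checked. Contig1004 held the largest mean share of reads of any contig in the table. Contig lengths were not used, so levels are compared between queens and not between contigs.

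The gynes came from commercial colonies and were offered males from the age of 5 days. SM queens mated (n = 8, from colonies C2, C3 and C7, estimated age 11 to 20 days) and were frozen 3 days later, and FM queens had the same opportunities and handling but failed to mate (n = 9, from the same colonies, 6 to 27 days). SR queens (n = 8, estimated age 94 to 97 days) and FR queens (n = 8, 91 to 102 days), from colonies C2, C3 and C9, had mated and then spent 8 weeks at 5 °C, and were frozen 1 month after leaving the cold. At dissection mature eggs were seen in the ovaries of SR queens, while the ovaries of FR queens were undeveloped. The labels name no genetic change and no drug. Each library is the brain of 1 queen, and several queens share a colony, so the spread between libraries is the spread between queens that are partly related.

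The ranking value spanned a wide range among queens of the same stage. In high queens Contig1004 took 11.9% of all reads in FM replicate 2, 11.3% in SM replicate 25, 6.17% in SM replicate 19, 6.00% in FM replicate 9, 4.35% in FM replicate 15 and 2.93% in FM replicate 14. In middle queens it took 2.77% in FM replicate 6, 2.17% in SM replicate 17, 2.06% in FM replicate 5, 1.71% in SM replicate 26 and 1.51% in SM replicate 23. In low queens it took 0.986% in FM replicate 11, 0.784% in SM replicate 16, 0.757% in SM replicate 22, 0.556% in FM replicate 10, 0.116% in FM replicate 4 and 0.0728% in SM replicate 21. The step at the edge of the high set was small, from FM replicate 14 (2.93%) to FM replicate 6 (2.77%) outside. At the edge of the low set it was larger, from FM replicate 11 (0.986%) to SM replicate 23 (1.51%) outside. The median share was 6.09% in high queens and 0.656% in low queens, a ratio of 9.27, and the highest share was 163 times the lowest. Counting error was small beside this spread: the lowest value rested on 32787 reads, and its 95% Wilson interval ran from 0.0721% to 0.0736%, which covers counting error only.

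**Figure D1:**
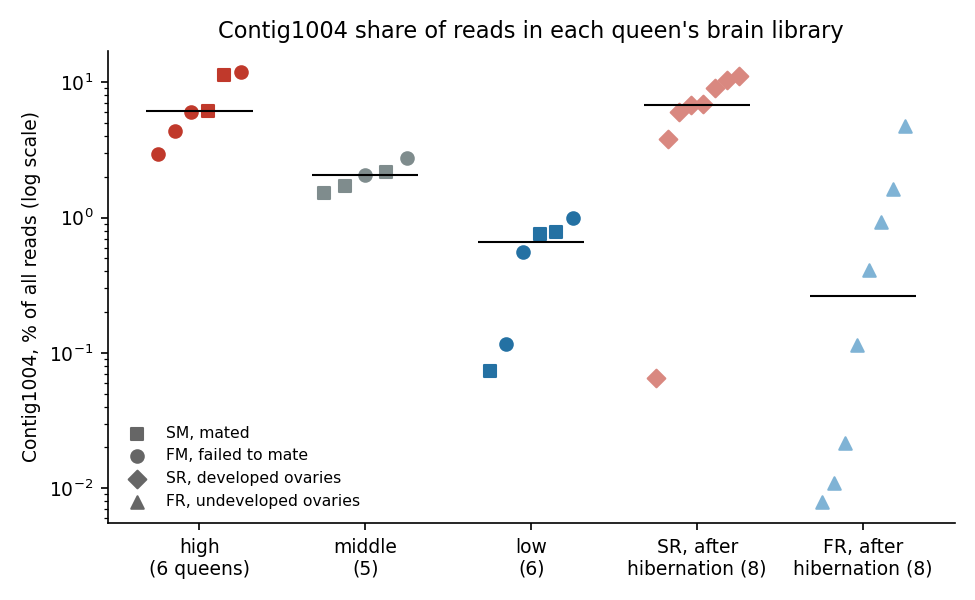
Share of all reads on Contig1004 (%, log scale) in each of the 33 queens, with 1 point per queen and a line at each set's median. High queens lie between 2.93% and 11.9% and low queens between 0.0728% and 0.986%. SM (squares) and FM (circles) queens occur in all 3 sets. On this scale 1 SR queen at 0.0655% lies far below the other SR queens, and the FR queens spread widely up to 1 queen at 4.78%.

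After hibernation the same contig ranged more widely still. Its share lay between 0.0655% and 11.2% in SR queens (median 6.84%) and between 0.00794% and 4.78% in FR queens (median 0.262%). Of the SR queens only replicate 47 was under 1%, and FR replicate 32 was above the lowest high queen. SM queens (median 1.61%, range 0.0728% to 11.3%) and FM queens (median 2.77%, range 0.116% to 11.9%) overlapped over nearly their whole range.

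The labels did not separate high from low queens. The high set held 2 SM and 4 FM queens and the low set held 3 SM and 3 FM queens (two-sided Fisher's exact test, p = 1, adjusted p = 1 over 3 label tests). Colonies C2, C3 and C7 gave 1, 2 and 3 high queens and 2, 3 and 1 low queens (exact permutation test of the chi-square statistic, p = 0.610, adjusted p = 0.916). Estimated age, read as days, averaged 14.2 ± 6.01 days in high queens and 17.5 ± 4.68 days in low queens (SD, n = 6 each), a difference of -3.33 days that was within the spread (exact permutation test, two-sided, p = 0.325, which is 0.916 after adjustment). Across the 17 queens age and log2 Contig1004 gave Pearson's r = 0.0407 (permutation p = 0.876) and Spearman's rho = 0.00613 (permutation p = 0.980), and r was 0.0631 once the 2 queens of most extreme age were dropped. Within groups r was 0.628 in SM queens (n = 8, exact permutation p = 0.0839) and -0.249 in FM queens (n = 9, exact permutation p = 0.528). No adjusted p of these 8 correlation tests was below 0.537, and sets of this size leave room for sizeable differences in age or colony.

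The libraries of the sets were of similar depth but not alike in make-up. High queens had 42858092 to 61560882 reads and low queens 45012221 to 56399374 reads. High queens had 6578 to 7073 contigs with a read (median 6794) and low queens 6932 to 7073 (median 6991). At an equal depth of 39305049 reads the expected numbers were 6572 to 6929 in high queens and 6871 to 6987 in low queens. The 10 most abundant other contigs took 11.4 ± 0.691% of the remaining reads in high queens and 10.1 ± 0.893% in low queens (SD, n = 6 each), and the TMM scaling factors, which correct for such differences in make-up, were 0.892 to 0.964 in high queens and 0.989 to 1.08 in low queens without overlap. The part of library make-up in the differences below was not tested. In all that follows CPM is computed on the reads other than Contig1004 and scaled by TMM, so that reads taken by Contig1004 do not lower the values of other contigs by construction.

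In a principal component analysis of the 17 queens over 5260 contigs without Contig1004, the first component (22.5% of the variance) ran from -8.89 to 28.1 in high queens, from -21.3 to 26.5 in middle queens and from -32.8 to -3.44 in low queens. The sets overlapped, since the high queen FM replicate 15 (-8.89) lay among the low queens, whose median was -9.44, and the middle queens spread across both. The second component (19.7%) was led by a single middle queen, FM replicate 6, at 59.3, which enters neither set of the comparison.

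High and low queens differed at contigs of many abundances. With mating outcome as a term in edgeR's quasi-likelihood fit, 5712 contigs were tested and 123 of them (2.15%) passed a Benjamini-Hochberg adjusted p of 0.05. Of these 75 (1.31%) were higher and 48 (0.84%) lower in high queens. The split depended on the scaling: it was 48 higher and 67 lower with upper-quartile scaling, and 53 higher and 290 lower with no scaling factors, when the median of all contigs was at -0.17 on the log2 scale. As the queens were split on counts from these libraries, the counts describe the size of the difference and nothing is read from their share. The median absolute log2 fold change was 0.77 among the called contigs and 0.20 among all tested. More than 2-fold differences were found for 26 of the higher and 18 of the lower contigs, and more than 4-fold for 12 and 5. The 6 high queens all lay above the 6 low queens for 66 contigs (1.16% of those tested) and all below them for 47 (0.823%), counts that the ranking itself favours. In bulk tissue a lower level can stand for fewer cells of a type or for less RNA per cell, and these cannot be told apart.

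**Figure D2:**
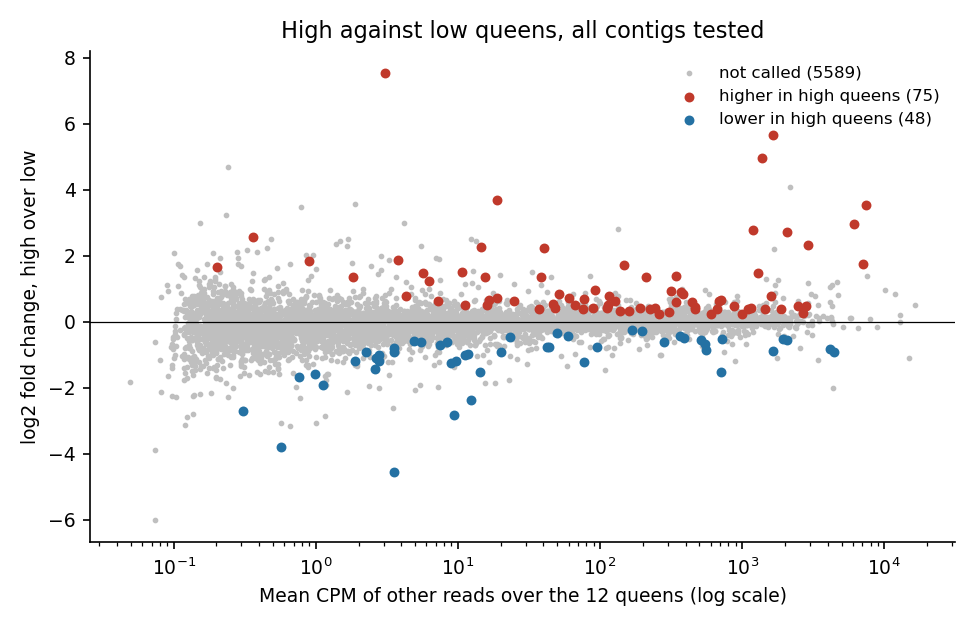
Log2 fold change of high over low queens against mean CPM over the 12 queens (log scale), with 1 point per contig tested. The 75 contigs called higher (red) reach further up at high abundance, with a median log2 fold change of 0.66, and the 48 called lower (blue) have a median of -0.90.

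The contigs called higher in high queens were on the whole the more abundant ones. Their median level was 161 CPM and 44 of 75 were above 100 CPM. How far abundance itself bears on passing the threshold was not tested, and the split into higher and lower depended on the scaling. The lower contigs had a median of 13.3 CPM with 15 of 48 above 100 CPM, and all contigs tested had a median of 5.88 CPM with 1405 of 5712 above 100 CPM. The 100 most abundant contigs held 8 called higher and 4 called lower, beside 1.31% and 0.84% of all contigs tested, and their median log2 fold change was 0.11, beside -0.02 over all contigs tested. The most abundant called contig, placed 11th in the table, measured 4760 to 27741 CPM in high queens and 387 to 2438 CPM in low queens, a log2 fold change of 3.53 ± 0.59 (SE). The next, placed 12th, measured 5005 to 16767 CPM in high queens and 1484 to 6053 CPM in low queens, a log2 fold change of 1.74 ± 0.37 (SE). The first of these did not overlap between the sets and the second did.

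Summed over each list, these contigs made up a visible part of the reads other than Contig1004. The contigs called higher took 5.94% to 12.0% of the other reads in high queens, 4.13% to 5.43% in middle queens and 2.59% to 3.55% in low queens. The contigs called lower took 1.11% to 1.82% in high queens, 1.29% to 2.33% in middle queens and 2.12% to 3.04% in low queens. The middle queens, which were not in the fit, fell between the sets: their mean lay between those of high and low queens for 70 of the 75 higher and 46 of the 48 lower contigs, beside 42.1% of all contigs tested. On a scale with low queens at 0 and high queens at 1, their median position was 0.507 for the higher and 0.582 for the lower contigs. Since the middle queens are intermediate in Contig1004 by the ranking, this too is a description. The sign was the same in SM and in FM queens for all 75 and all 48, as it was for 3795 of the 5712 contigs tested. It was the same within each of the colonies C2, C3 and C7 for all 123 called contigs, beside 39.5% of all tested. The queens that gave these signs also gave the calls, so the shared signs are a description and lend the lists no weight. Within colonies some signs rest on single queens, as C2 gave 1 high queen and C7 gave 1 low queen.

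**Figure D3:**
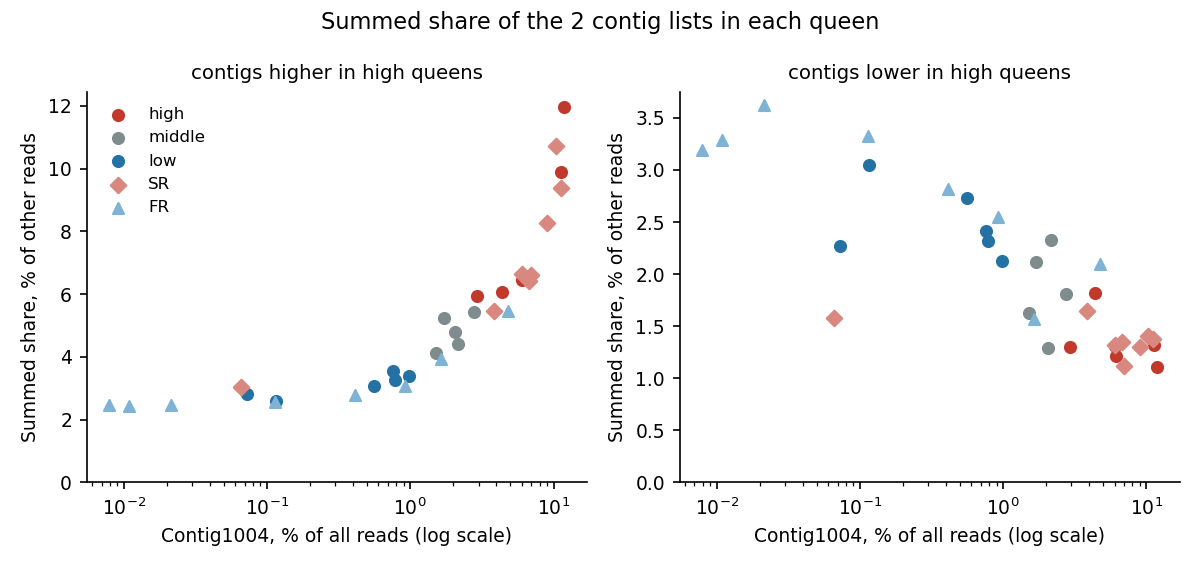
Summed share of the other reads (%) taken by the 75 contigs called higher (left) and the 48 called lower (right) against the Contig1004 share (%, log scale), with 1 point per queen. High queens reach 12.0% on the left and stay at or under 1.82% on the right; SR and FR queens, which played no part in choosing the lists, mostly lie along the same course, except SR replicate 47, which is low in Contig1004 and at 1.58% on the right.

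Among contigs of at least 5 CPM, Contig735 differed most. It measured 9537 CPM in FM replicate 2, 4811 CPM in SM replicate 25, 2470 CPM in FM replicate 9, 1893 CPM in SM replicate 19, 592 CPM in FM replicate 14 and 151 CPM in FM replicate 15, all high queens. In low queens it measured 110 CPM in FM replicate 11, 94.4 CPM in SM replicate 21, 59.9 CPM in SM replicate 16, 52.7 CPM in SM replicate 22, 40.9 CPM in FM replicate 4 and 36.7 CPM in FM replicate 10. The sets did not overlap, although the high queens themselves differed widely, with FM replicate 15 close to the low queens. The middle queens split, with 1586 CPM and 1430 CPM in FM replicates 6 and 5 and at most 124 CPM in SM replicates 23, 17 and 26. The log2 fold change was 5.65 ± 0.97 (SE, n = 6 each). Within colonies the difference of mean log2(CPM + 0.5) was 7.58 in C2, 5.24 in C3 and 2.78 in C7.

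Contig1859 followed Contig1004 most closely, with a Spearman's rho of 0.966 over the 17 queens among 2967 contigs of at least 5 CPM. It measured 5565 CPM in FM replicate 2, 3406 CPM in SM replicate 25, 2233 CPM in FM replicate 15, 1938 CPM in SM replicate 19, 1689 CPM in FM replicate 9 and 1155 CPM in FM replicate 14. The low queens had 199 CPM in SM replicate 22, 197 CPM in SM replicate 16, 98.6 CPM in FM replicate 11, 71.4 CPM in FM replicate 10, 23.8 CPM in SM replicate 21 and 12.9 CPM in FM replicate 4. High and low queens lay far apart, and the middle queens, at 318 to 1252 CPM, filled most of the gap and reached the lowest high queen. Its log2 fold change was 4.97 ± 0.77 (SE, n = 6 each). Contig2248 came next in likeness (rho = 0.941) and was the third most abundant called contig, at 6470 to 18571 CPM in high queens, 2358 to 4640 CPM in middle queens and 325 to 2096 CPM in low queens. These 3 ranges of Contig2248 did not touch, and its log2 fold change was 2.97 ± 0.53 (SE, n = 6 each). In all 29 contigs had a rho of 0.8 or more and 5 a rho of -0.8 or less, descriptions over queens that also share library make-up. Whether any of them shared reads with Contig1004 could not be examined.

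Of the lower contigs, Contig3989 had the largest fold among those of at least 5 CPM. It measured 5.19 CPM in FM replicate 15, 2.77 CPM in FM replicate 14, 2.29 CPM in FM replicate 9, 2.23 CPM in SM replicate 25, 1.68 CPM in FM replicate 2 and 0.920 CPM in SM replicate 19, the high queens. The low queens had 29.1 CPM in FM replicate 10, 24.4 CPM in SM replicate 22, 23.8 CPM in FM replicate 4, 9.86 CPM in SM replicate 16, 6.42 CPM in SM replicate 21 and 3.62 CPM in FM replicate 11. The sets overlapped through FM replicate 15 among the high queens and FM replicate 11 among the low queens, both from colony C7. The log2 fold change was -2.82 ± 0.55 (SE, n = 6 each), and within colonies the difference of mean log2(CPM + 0.5) was -2.86 in C2, -3.11 in C3 and -0.15 in C7.

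Contig3915 did not overlap between the sets. It measured 8.77 CPM in FM replicate 15, 6.31 CPM in SM replicate 25, 3.18 CPM in FM replicate 9, 2.13 CPM in FM replicate 14, 1.87 CPM in FM replicate 2 and 1.81 CPM in SM replicate 19. In low queens it measured 34.6 CPM in FM replicate 4, 30.7 CPM in FM replicate 10, 17.0 CPM in SM replicate 21, 16.1 CPM in SM replicate 22, 15.6 CPM in SM replicate 16 and 11.3 CPM in FM replicate 11. Its log2 fold change was -2.39 ± 0.47 (SE, n = 6 each), with FM replicate 15 again the high queen nearest to the low ones. Contig9810 was the contig most opposed to Contig1004 in rank (rho = -0.873), over a narrow range of 4.02 to 5.37 CPM in high queens, 4.67 to 6.98 CPM in middle queens and 5.41 to 7.76 CPM in low queens. Its log2 fold change was -0.61 ± 0.14 (SE, n = 6 each). FM replicate 15 was thus the high queen nearest to the low set for Contig735, Contig3989, Contig3915 and Contig9810, but not for Contig1859.

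**Figure D4:**
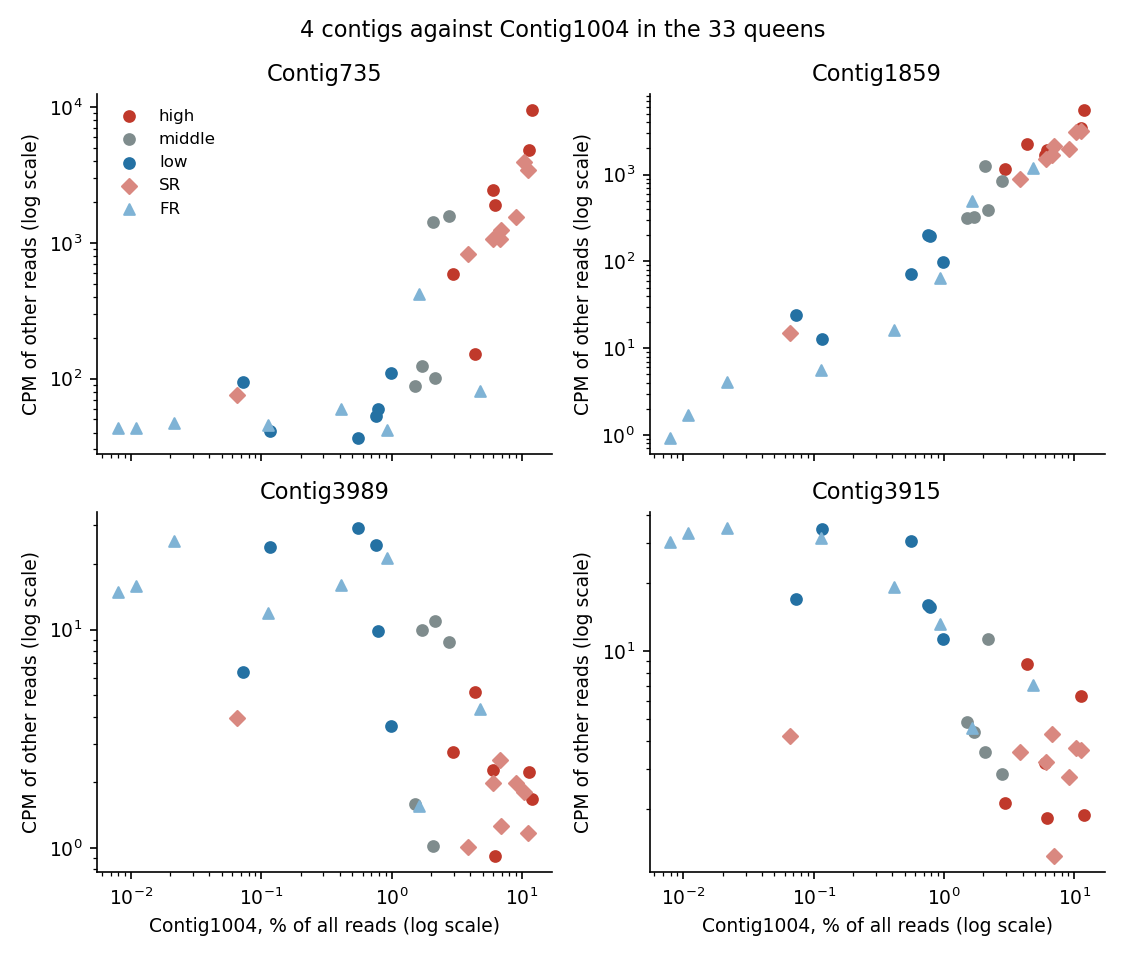
CPM of 4 contigs (log scale) against the Contig1004 share (%, log scale) in the 33 queens, coloured by set. Contig1859 climbs with Contig1004 over the whole range, and Contig735 stays between 36.7 and 124 CPM in many queens and is far higher in others. Contig3989 and Contig3915 are mostly lower where Contig1004 is high. Departures include SR replicate 47 on the left, Contig3989 at 1.02 CPM in FM replicate 5 (2.06%) and Contig3915 at 6.31 CPM in SM replicate 25 (11.3%).

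The queens sampled after hibernation showed whether other contigs moved with Contig1004 in animals that the ranking had not used. Contig1004 was again counted in the same libraries as the other contigs. The TMM factors ran from 0.983 to 1.08 in FR queens and from 0.940 to 1.05 in SR queens. The part of library make-up in the slopes was not tested. In the 16 SR and FR queens, with outcome as a term, the slope of each contig on log2 Contig1004 was tested by edgeR's quasi-likelihood test, as a log2 change per doubling of Contig1004. Of 5292 contigs tested, 442 rose with Contig1004 (8.35%) and 331 fell (6.25%) at an adjusted p of 0.05; with upper-quartile scaling 343 rose and 455 fell, and with no scaling factors 199 of 767 called contigs rose. Of the 75 contigs higher in high queens 74 were tested, 72 had a positive slope and 42 rose (56.8%); none fell. Of the 48 contigs lower in high queens 47 were tested, 46 had a negative slope and 10 fell (21.3%); none rose. The median slope was 0.065 for the higher contigs, -0.061 for the lower contigs and -0.002 over the 5276 contigs tested both before and after hibernation, of which 8.38% rose and 6.25% fell. These queens shared no library with the 12 ranked ones. Still, SR and FR queens were on average also far apart in Contig1004, and the slope is what remains within the groups. Within SR queens the range of Contig1004 came mainly from replicate 47 (0.0655% of reads), the others lying at 3.84% to 11.2%. Fitted in SR queens alone, 19 contigs passed.

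Read from the other side, 772 of the 773 contigs called after hibernation were also tested between high and low queens. The sign was the same for 700 of them (90.7%), beside 72.3% of all contigs tested in both, and 6.74% of them were among the contigs called between high and low queens in that direction. Of the high and low contigs tested again, 118 of 121 had the same sign and 3 the opposite sign. In share terms 43.0% of the 121 contigs passed in the same direction and 0 in the opposite one.

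**Figure D5:**
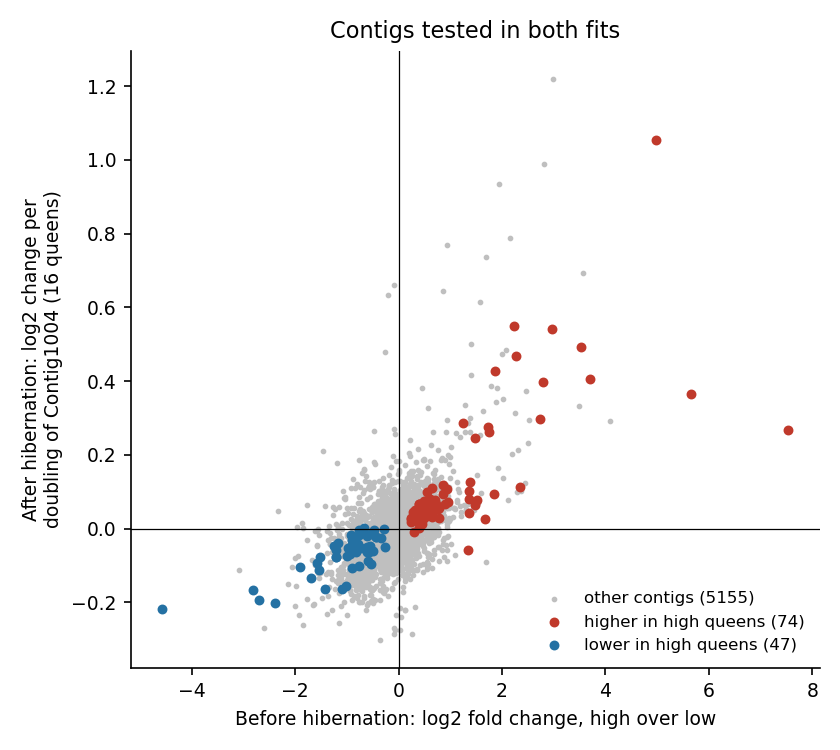
Log2 change per doubling of Contig1004 in the 16 SR and FR queens against the log2 fold change of high over low queens, with 1 point per contig tested in both. Of the contigs called higher (red) 72 of 74 lie above zero, and of those called lower (blue) 46 of 47 lie below it.

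Contig1859 had the strongest relation after hibernation, a slope of 1.05 ± 0.08 (SE, adjusted p = 5.65e-06), which is a doubling for each doubling of Contig1004 within the error. It measured 3215, 3121, 2143, 1971, 1674, 1512, 897 and 15.1 CPM in the 8 SR queens, the last in replicate 47. The 8 FR queens had 1197, 498, 64.1, 16.3, 5.58, 4.11, 1.70 and 0.933 CPM, the first in replicate 32. The queens that stood apart from their group in Contig1004 stood apart here too. Contig4393 behaved likewise, with a slope of 0.99 ± 0.09 (SE, adjusted p = 3.6e-05), at 1.05 to 404 CPM in SR queens and 0.0187 to 143 CPM in FR queens. Before hibernation it measured 143 to 369 CPM in high queens and 2.55 to 85.5 CPM in low queens. That was a log2 fold change of 2.81 ± 0.74 (SE), and the contig was not among the 123. Whether Contig1859 or Contig4393 shared reads with Contig1004 could not be examined.

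The other named contigs followed less closely. Contig2248 rose with a slope of 0.54 ± 0.05 (adjusted p = 2.96e-05), and the contigs placed 11th and 12th in abundance rose with slopes of 0.49 ± 0.07 (adjusted p = 0.00124) and 0.26 ± 0.05 (adjusted p = 0.00721). Contig735 had a slope of 0.37 ± 0.10 (adjusted p = 0.0280), but without FR replicate 37 it was 0.23 (adjusted p = 0.168) and without SR replicate 47 it was 0.28 (adjusted p = 0.0580), and neither passed. Contig735 measured 824 to 3946 CPM in 7 SR queens and 76.1 CPM in replicate 47, and 41.5 to 419 CPM in FR queens. FR replicate 32 held 4.78% Contig1004 but only 80.7 CPM of Contig735, a low queen's level.

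Contig3915 fell with a slope of -0.20 ± 0.05 (adjusted p = 0.0230), and without FR replicate 32 it was -0.18 (adjusted p = 0.0903). Contig3989 (-0.17 ± 0.07, adjusted p = 0.102) and Contig9810 (-0.05 ± 0.02, adjusted p = 0.124) did not pass, although Contig3989 did without FR replicate 38 (-0.22, adjusted p = 0.0321). In SR replicate 47, whose Contig1004 share was 0.0655%, Contig3989 was at 3.93 CPM and Contig3915 at 4.19 CPM, beside ranges of 1.02 to 2.52 CPM and 1.23 to 4.28 CPM in the other SR queens and of 1.55 to 25.3 CPM and 4.56 to 34.9 CPM in FR queens. This queen was thus like the FR queens in Contig1004, Contig1859, Contig2248 and Contig735 and nearer to the SR queens in the 2 contigs that were lower in high queens.

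Among called contigs of at least 5 CPM, the largest falls with Contig1004 after hibernation rested on 1 queen. Contig8211 (-0.27 ± 0.08, adjusted p = 0.0353) and Contig7705 (-0.24 ± 0.07, adjusted p = 0.0371) measured 84.9 and 38.0 CPM in FR replicate 28, against at most 7.95 and 4.82 CPM in the other FR queens. Without that queen the slopes were -0.05 (adjusted p = 0.303) and -0.04 (adjusted p = 0.369). Leaving out FR replicate 31, 32, 37 or 38 moved the slopes little but also left both contigs short of the threshold, with adjusted p of 0.0510 to 0.0901. Between high and low queens their log2 fold changes were 0.02 ± 0.46 and 0.04 ± 0.32 (SE), so neither set was higher within the error. Before hibernation the same contigs were far above the rest in FM replicate 6, a middle queen, at 209 and 216 CPM.

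Whether the difference between high and low queens itself differed with mating outcome was tested as an interaction. No contig of 5712 passed (0%), with 186 at an unadjusted p under 0.05; limma-voom called 0 and DESeq2 called 2. Only 2 high queens had mated, and the sets were those that the reads chose, both of which limit this test. The contigs with the lowest p in each direction illustrate the values. Contig1238 measured 440 and 460 CPM in the 2 high SM queens and 44.8 to 75.7 CPM in low SM queens, against 83.8 to 190 CPM in high FM queens and 56.3 to 72.5 CPM in low FM queens (difference of log2 fold changes 1.94 ± 0.40, edgeR adjusted p = 0.99982). Contig3304 measured 5.72 and 7.36 CPM in high SM queens and 7.34 to 8.50 CPM in low SM queens, against 8.45 to 10.1 CPM in high FM queens and 4.46 to 6.10 CPM in low FM queens (-1.12 ± 0.26, edgeR adjusted p = 0.99982). These are the 2 contigs that DESeq2 called (adjusted p = 0.0306 for each).

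Mating outcome was then compared with the level of Contig1004 held as a term. Between 8 SM and 9 FM queens no contig of 5250 passed with the term (0%), with 345 at an unadjusted p under 0.05, and none without it, with 333 at that p; DESeq2 and limma-voom also called 0 with the term. Contig4147 and Contig1969 had among the lowest p. Contig4147 averaged 49.6 ± 5.51 CPM in SM queens and 67.8 ± 13.7 CPM in FM queens (SD), a log2 fold change of -0.44 ± 0.12 with the term (edgeR adjusted p = 0.672) and -0.45 ± 0.12 without it. Contig1969 averaged 142 ± 34.8 CPM in SM queens and 91.6 ± 22.8 CPM in FM queens (SD), a log2 fold change of 0.60 ± 0.17 with the term (edgeR adjusted p = 0.672) and 0.63 ± 0.17 without it. The term moved these fold changes by less than their errors.

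After hibernation Contig1004 and outcome went together, with a median share of 6.84% in SR queens and 0.262% in FR queens. The same comparison was run in these queens. Between 8 SR and 8 FR queens 2049 of 5292 contigs passed without the Contig1004 term (38.7%) and 1 passed with it (0.0189%), with 954 at an unadjusted p under 0.05. With the term, DESeq2 called 224, and leaving out FR replicate 37 gave 862. SR queens were mostly high in Contig1004 and FR queens mostly low, so what belongs to outcome and what to Contig1004 cannot be told apart for most contigs. The contig that passed was Contig3156, at 1083 to 2082 CPM in SR queens and 2782 to 4111 CPM in FR queens without overlap. Its log2 fold change was -1.03 ± 0.13 with the term (adjusted p = 0.00254) and -1.20 ± 0.11 without it (adjusted p = 3.27e-05). Among the ranked queens Contig3156 measured 1294 to 4588 CPM in high queens, 1101 to 4030 CPM in middle queens and 2853 to 6079 CPM in low queens. The highest high queen, FM replicate 15, lay within the low range.

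The 4 contigs named first differed in how the term changed them. With the term the log2 fold change of SR over FR was 0.54 ± 0.43 for Contig1859 (adjusted p = 0.521), and 3.02 ± 1.38 without it (adjusted p = 0.0931). For Contig735 it was 2.22 ± 0.83 with the term (adjusted p = 0.189) and 4.09 ± 0.76 without it (adjusted p = 0.00206). For Contig3989 it was -2.02 ± 0.50 with the term (adjusted p = 0.0892) and -2.82 ± 0.45 without it (adjusted p = 0.00106). For Contig3915 it was -1.53 ± 0.41 with the term (adjusted p = 0.101) and -2.71 ± 0.40 without it (adjusted p = 0.000848). With the term, all 4 differences missed the threshold of edgeR's test.

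The 2 lists were also summed in the queens they were not drawn from. The contigs called higher in high queens took 3.05% to 10.7% of the other reads in SR queens (median 6.62%) and 2.43% to 5.47% in FR queens (median 2.68%). The contigs called lower took 1.12% to 1.65% in SR queens (median 1.37%) and 1.57% to 3.62% in FR queens (median 3.00%). Before hibernation the higher list took 2.83% to 9.89% in SM queens (median 4.27%) and 2.59% to 12.0% in FM queens (median 5.43%), ranges that overlap almost completely. The lower list took 1.21% to 2.42% in SM queens (median 2.19%) and 1.11% to 3.04% in FM queens (median 1.81%).

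How many contigs passed between high and low queens hung on single queens and colonies. Leaving out 1 queen gave 9 to 378 calls. Of the low SM queens, dropping replicate 16 left 9 calls and dropping replicate 22 left 19, and dropping the high SM replicate 19 left 11. Of the high FM queens, the fit lacking replicate 2 gave 36 calls, that lacking replicate 9 gave 59 and that lacking replicate 15 gave 378. Of the low FM queens, the fit lacking replicate 4 gave 30 calls, that lacking replicate 10 gave 41 and that lacking replicate 11 gave 327. Without the queens of colony C2 or of colony C3 it was 0, and without those of colony C7 it was 569. With the 8 highest against the 8 lowest it was 0, with 641 contigs at an unadjusted p under 0.05. Contig735, Contig1859, Contig2248, Contig3989, Contig3915 and Contig9810 kept their sign in the alternatives run for them between high and low queens. For sets ranked on Contig1004 that is no sign of stability. Of 31 alternatives each, the call was lost in 7 for Contig1859, 9 for Contig735 and 12 for Contig2248. It was lost in 14 for Contig3915, 17 for Contig3989 and 17 for Contig9810.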

How the data were processed

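Raw read counts of 10672 contigs in 33 libraries were deposited by the authors, 1 column per queen, per the file headers; 1799 contigs had no read, and 0 value columns belonged to other samples. Per the labels' protocols, brain mRNA was selected with oligo-dT and sequenced on an Illumina HiSeq instrument. TopHat, SAMtools, FastQC and edgeR are named, with no version, in the submitters' processing notes. As counting program, build, annotation and strand setting were not given in the sources used here, reads shared between near-identical contigs could not be examined. The deposited tables of scaled and normalized scores were not used here.

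Library totals were 42858092 to 61560882 reads. All 528 pairs of libraries differed by more than sampling noise (chi-square per degree of freedom of 82.7 or more). Contig1004 was left out of the totals and of the tests. Counts were filtered with filterByExpr (minimum count 10), scaled with TMM and fitted with edgeR 4.0.16 (robust quasi-likelihood, R 4.3.3), with Benjamini-Hochberg adjustment over all contigs tested and calls at an adjusted p of 0.05. SE was taken as log2 fold change over the root of F. DESeq2 1.42.0 and limma-voom (limma 3.58.1) were alternatives. Two-sided permutation tests (scipy 1.17.1) ignored colony; they were exact for sets and groups under 10 queens, and the correlations over 15 or 17 queens used 100000 resamples. Alternatives covered scaling, filters, age and colony terms, set size, outcome groups, colonies and single queens.

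Named contigs were at most 2 per direction. They had the largest fold or slope among called contigs of at least 5 CPM, the highest and lowest rank correlation with Contig1004, or, where fewer were called, the lowest p. Contig3156, the contigs placed by abundance and the single queens described were chosen after their values were seen, as were the SR against FR comparison, the left-out colonies and SR replicate 47 and FR replicate 32 left out. The ranking rule, sets and lists were chosen with earlier results of these data known. Contig identifiers carried no gene names, so planned marker lists were not run.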

Additional observations from a re-analysis of the deposited data

Results flagged for a closer look

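Within sets of 5 to 8 queens, 15 of 65 sets of values searched held a queen far from the rest by Dixon's criterion. Chance meets it in about 5% of groups if values are normally distributed. The values here were not on a log scale and every flag was the highest of its set, so the shares cannot be compared. Many of these sets share queens, so the flags are not independent. Contig8211 and Contig7705 were named for slopes that rested on FR replicate 28, so its flags follow from that choice. In the high set SM replicate 25 stood apart for Contig8211 (15.9 CPM) and Contig7705 (8.75 CPM), and FM replicate 15 for Contig9810 (5.37 CPM). In the middle set FM replicate 6 stood apart for Contig8211 (209 CPM) and Contig7705 (216 CPM), and SM replicate 17 for Contig3915 (11.3 CPM) and Contig9810 (6.98 CPM). In the low set FM replicate 11 stood apart for Contig7705 (8.25 CPM).

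After hibernation FR replicate 32 was far above the other FR queens for Contig1004 (4.78% of reads, the next at 1.64%), Contig1859 (1197 CPM, the next at 498 CPM), Contig4393 (143 CPM, the next at 42.5 CPM) and Contig2248 (6074 CPM, the next at 2241 CPM). FR replicate 28 was far above the others for Contig8211 (84.9 CPM) and Contig7705 (38.0 CPM), and FR replicate 37 for Contig735 (419 CPM).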

How the results depend on the processing

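Beside 123 calls between high and low queens, the count was 230 with age as a term, 510 with DESeq2, 72 with colony as a term, 249 for the 5 highest against the 5 lowest, 0 for the 8 highest against the 8 lowest (641 at an unadjusted p under 0.05), 0 in FM queens alone (618), 42 in SM queens alone, 0 without colony C2 (629), 0 without colony C3 (446) and 569 without colony C7. With no scaling factors it was 343, split into 53 higher and 290 lower, with the median of all contigs shifted by -0.17 on the log2 scale; upper-quartile scaling gave 48 higher and 67 lower beside 75 and 48. Leaving out single queens gave 9 to 378. The cause was not tested. The interaction count was 2 with DESeq2 and 0 without any 1 queen. The slope after hibernation gave 773 calls, 19 in SR queens alone and 331 to 977 without single queens, the lowest counts coming with FR replicate 32 (331), 28 (393), 27 (445), 36 (465) or 37 (506) left out. Its split was 442 rising and 331 falling, 343 and 455 with upper-quartile scaling, and 199 rising of 767 with no scaling factors. The 52 contigs called both before and after hibernation became 18 of 70 with colony as a term in both fits, 127 of 338 with no scaling factors in both, 11 of 117 in SR queens alone and 38 of 121 without SR replicate 47 and FR replicate 32; without either 1 of them it was 36 to 57. Between SR and FR queens with the Contig1004 term, the count of 1 became 224 with DESeq2 and 1 to 862 without single queens. SM against FM gave 0 calls in all 27 alternatives. The correlation of age with Contig1004 was -0.249 within FM queens, beside 0.0407 over 17 queens. No paired analysis was possible because the groups share no replicate numbers. At 39305049 or more reads other than Contig1004, depth limits most the contigs under 1 CPM, 1678 of the 5712 tested.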
